A study of Mus musculus with 9 samples.

Results

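The genes of the core circadian clock were followed through RNA sequencing of mouse heart in 3 groups of 3 libraries each. The set was fixed by name as 10 genes (Arntl, Clock, Per1, Per2, Per3, Cry1, Cry2, Nr1d1, Nr1d2 and Dbp), of which 9 were found among the 22851 genes of the deposited count matrix and Per3 was not analysed here. All libraries were from male C57BL/6 mice (C57BL/6J in the study's methods) that entered the study at 6 to 8 weeks of age and were kept on a cycle of 12 h light and 12 h dark. The normal control group, titled CK, received citrate buffer. The diabetic cardiomyopathy group (DCM) received a single injection of streptozotocin at 180 mg/kg, a toxin of pancreatic beta cells, and was kept for 12 weeks as a model of type 1 diabetes. The spermine group (SPM) received the same toxin and also the polyamine spermine at 1 mg/kg. Spermine dosing was daily at first, from 2 weeks ahead of the toxin, and less frequent during the 12 weeks of the model. All mice were fasted overnight before the hearts were taken. The hour at which each heart was taken is not given in the sources used here, so a difference in collection time between groups and a difference due to diabetes or spermine cannot be told apart. The study's methods also describe the RNA samples in 2 ways, as 3 mice per group and as pools of 6 hearts, so the p-values measure the spread between libraries, whichever these are.

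Total counts lay between 29901300 and 39718680 per library, and the mitochondrial share was lowest in CK (13.7% to 16.2%), then DCM (15.5% to 18.9%), and highest in SPM (21.0% to 21.1%). The tissue label names myocardium and the extraction protocol names retina. The 8 cardiomyocyte markers in the matrix summed to between 42072 and 56312 CPM (counts scaled to the library size with TMM) in every library, whereas 8 retina markers summed to 0.644 to 1.82 CPM. SPM replicate 2 stood apart from the other libraries. For 66.6% of 14529 genes its level fell inside the interval set by SPM replicates 1 and 3, against 15.7% to 39.8% for the same measure in the other 8 libraries, and it did so for 9 of the 9 clock genes. A mixture of 44% of replicate 1 with the rest from replicate 3 came so close to it that the squared deviation had a median of 0.413 counting variances, and the next smallest value over the libraries was 1.12. Fold changes of the clock genes in SPM are therefore given with and without replicate 2, and SPM group means include it.

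The mammalian clock is a feedback loop of transcription that runs in almost every cell, cardiomyocytes included, with a period of about a day. Its activators, CLOCK and BMAL1 (the product of Arntl), bind E-box elements and switch on the Per and Cry genes, whose products return to the nucleus and repress CLOCK and BMAL1. The same activators switch on Nr1d1 and Nr1d2, whose REV-ERB proteins repress Arntl through ROR response elements, and Dbp, whose product binds D-box elements in output genes. Arntl transcripts therefore peak in a different part of the day from those of Nr1d1, Dbp and the Per genes, and in heart the loop sets daily rhythms of metabolic genes.

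Promoter sequences are shown for the members that changed and whose RefSeq window (GRCm38.p6, 250 bases before to 50 after the start) held a match to a clock element. Windows were found for 8 of the 9 genes, 12 windows in all. The E-box (CACGTG), the D-box (TTATGTAA or TTACGTAA) and the core of the ROR/REV-ERB element (TAGGTCA or TGGGTCA) were searched on both strands, and 7.15%, 1.06% and 6.45% of 32851 mouse windows of the same length held them. The window of Per1 on the plus strand held an E-box whose first base is at position -166 from the start, and the 250 bases before the start are given at chr11:69098699-69098948, with the E-box in capitals. The window of Arntl on the plus strand held a match to the ROR/REV-ERB core, and 30 bases around it are given at chr7:113207529-113207558, with the match in capitals and its first base at position 31 after the start.
Per1: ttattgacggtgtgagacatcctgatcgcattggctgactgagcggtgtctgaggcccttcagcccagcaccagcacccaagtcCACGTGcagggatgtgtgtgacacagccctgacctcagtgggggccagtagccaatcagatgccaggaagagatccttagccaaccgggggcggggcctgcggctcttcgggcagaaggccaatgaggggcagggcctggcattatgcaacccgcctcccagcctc
Arntl: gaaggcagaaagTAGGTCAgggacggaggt
Cry1, which was called in no comparison, also held an E-box in its window, 60 bases before the start. The windows found for Clock, Cry2, Nr1d1, Nr1d2 and Dbp held no match to these letters.

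Levels between genes were compared as FPKM, the deposited values per kilobase of transcript. In CK hearts the most abundant member was Nr1d1, at 25.7 ± 2.11 FPKM (SD, n = 3), followed by Per1 at 15.8 ± 5.88. Nr1d2 (9.95 ± 1.36) and Arntl (9.18 ± 1.06) lay next and did not differ beyond their spread, and neither did Cry2 (6.88 ± 0.753) and Dbp (6.58 ± 0.534). Cry1 had 4.57 ± 0.417, Clock 3.47 ± 0.679 and Per2 1.27 ± 0.302 FPKM. In SPM hearts the order was different. Nr1d1 (41.5 ± 0.576 FPKM), Per1 (28.0 ± 0.527) and Dbp (27.8 ± 1.41) led, and Arntl, at 3.83 ± 0.932 FPKM, was level with Cry1 (3.92 ± 1.27) and Clock (3.85 ± 0.52) at the bottom. In DCM hearts Dbp stood at 21.9 ± 4.32, Arntl at 5.51 ± 0.692 and Per2 at 4.65 ± 0.375 FPKM.

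**Figure D1:**
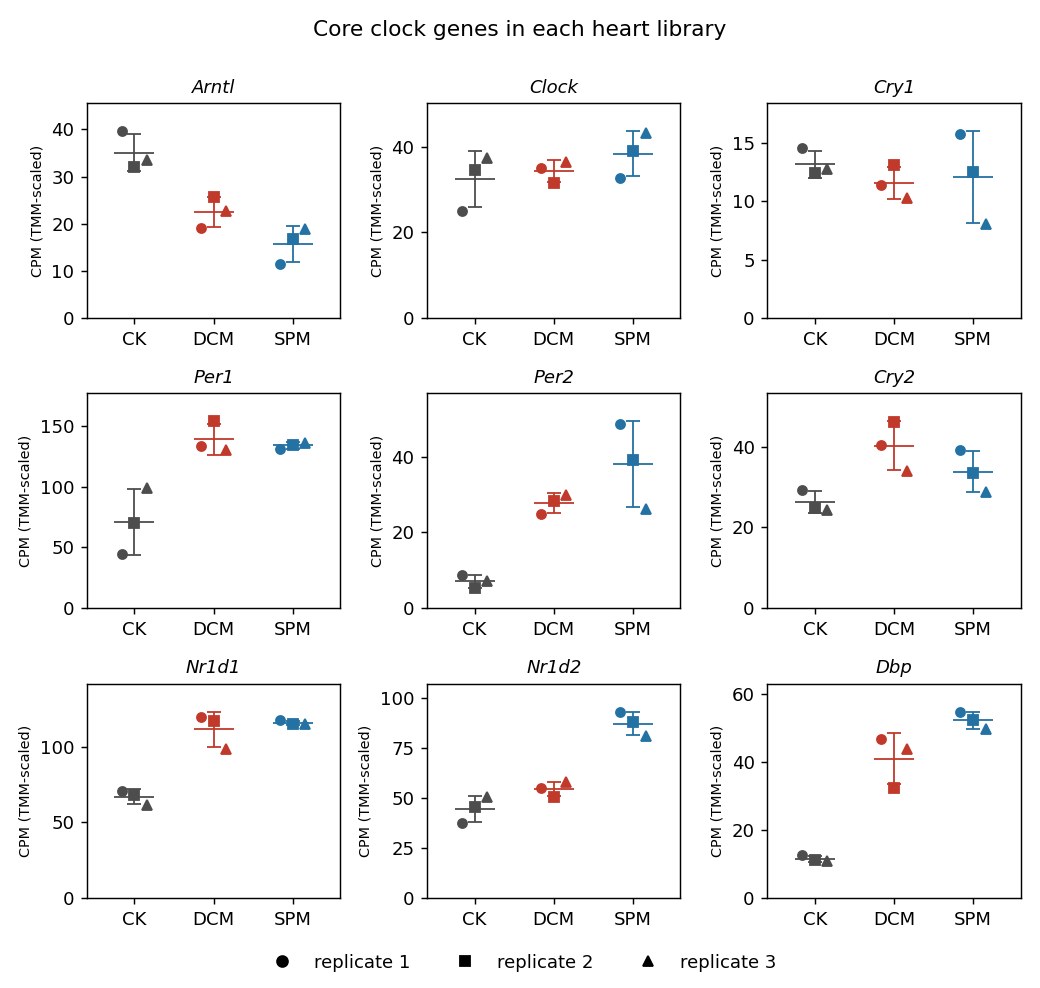
Level of each of the 9 clock genes in every library, as CPM after TMM scaling (vertical axes start at 0); horizontal marks are group means, bars are SDs, and the 3 symbols are replicates 1, 2 and 3. Arntl is lower and Per1, Per2, Nr1d1 and Dbp are higher in all DCM and SPM libraries than in all CK libraries, while Clock and Cry1 overlap in all groups.

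Groups were compared 2 at a time with edgeR's quasi-likelihood test over all genes that passed the low-count filter, and calls needed 1.5-fold or more and p under 0.05 once adjusted by Benjamini and Hochberg. In the DCM group compared to the CK group, Per2, Dbp, Per1, Nr1d1 and Cry2 rose and Arntl fell, and Clock, Cry1 and Nr1d2 did not pass. So 5 of 9 members were called higher and 1 of 9 lower, where 2.03% of 14402 genes tested were called higher and 2.31% lower. The libraries of the groups did not overlap for 7 of the 9 genes, against 29.3% of all genes tested. The median log2 fold change over the members was 0.62, beside 0.00 over all genes tested. The call of Arntl was lost without CK replicate 1 (log2 fold change -0.55) and without DCM replicate 1 (-0.54), in both cases on the fold limit, and that of Per1 without DCM replicate 2 (0.88, adjusted p = 0.0518). The call of Cry2 was lost without CK replicate 2 (0.58) or 3 (0.57), without DCM replicate 2 (0.51) and by limma on log2 FPKM (0.51), each time at the fold limit.

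With SPM set against DCM, Nr1d2 rose and no other member passed. With an offset for the GC content of genes the member called was Dbp (log2 fold change 0.60, adjusted p = 0.0478) in place of Nr1d2 (0.44, adjusted p = 0.0239), which fell short of the fold limit. The count by the test without the offset is 1 of 9 called higher and 0 of 9 lower, where 2.70% of 14493 genes tested were called higher and 0.890% lower. At an unadjusted p below 0.05, Arntl, Per2 and Dbp were added to Nr1d2. The share of all genes at this looser limit is not reported here, so this addition is not a result about the members. DESeq2 also called 1 member. Arntl, Nr1d2 and Dbp, 3 of the 9, did not overlap between the groups, against 39.5% of all genes tested. Without SPM replicate 2 the member called was the same, and without SPM replicate 3 Arntl (-0.67) and Per2 (0.67) were called as well, making 3. The fit without replicate 3 keeps replicate 1 and replicate 2, which resembles a mixture of replicates 1 and 3. These libraries may not be independent, so the added calls may rest on too small a spread.

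With SPM set against CK, Per2, Dbp, Nr1d2, Per1 and Nr1d1 rose and Arntl fell. These are 5 of 9 called higher and 1 of 9 lower, where 5.08% of 14574 genes tested were called higher and 4.12% lower. The libraries did not overlap for 6 of the 9 genes, against 46.1% of all genes tested, and the median log2 fold change over the members was 0.79, beside 0.00 over all genes. The call of Per1 was lost without SPM replicate 2, where the other 5 held, and also without CK replicate 2. The comparisons share groups, so their values are given side by side and are not independent of each other.

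**Figure D2:**
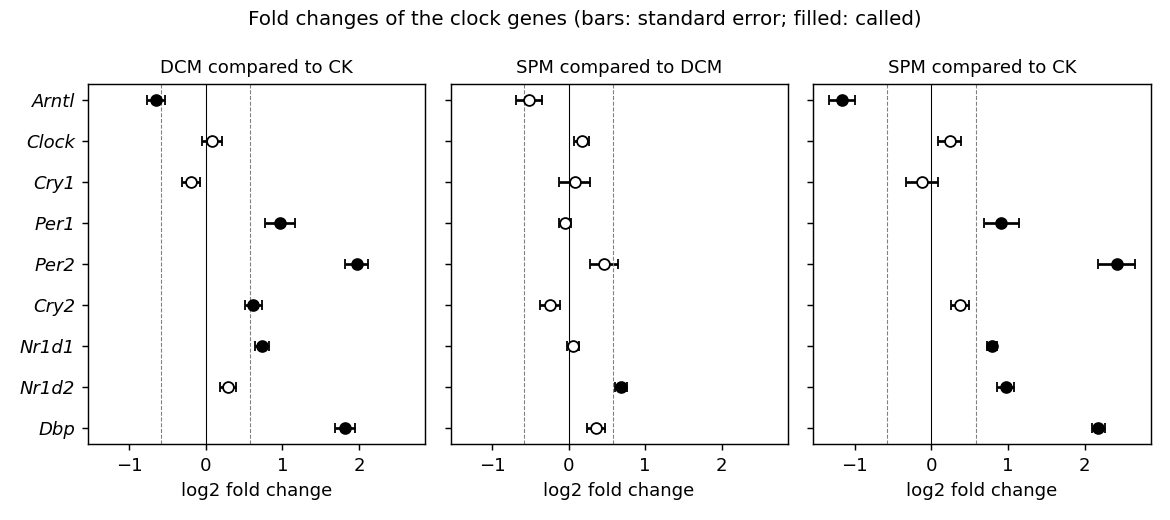
Log2 fold change of each clock gene in the 3 comparisons; bars are standard errors, filled points passed the adjusted p and the fold limit, dashed lines mark a fold change of 1.5. Per2 and Dbp lie farthest to the right in both comparisons with CK (1.97 and 1.82, then 2.42 and 2.18), and Nr1d2 is the filled point of the middle panel.

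Among the activators, Arntl (ENSMUSG00000055116, GRCm38 chromosome 7, 113207465 to 113314126, plus strand) encodes BMAL1, the partner of CLOCK. In the order of replicates 1 to 3, its level was 39.6, 32.1 and 33.6 CPM in the CK libraries, 19.2, 25.6 and 22.7 in the DCM libraries and 11.4, 16.7 and 18.8 in the SPM libraries. Every DCM library was below every CK library and every SPM library was below every DCM library. The log2 fold change was -0.65 (standard error 0.12, adjusted p = 0.00398) in DCM compared to CK and -1.17 (standard error 0.17, adjusted p = 0.0022) in SPM compared to CK, both from edgeR's quasi-likelihood test. Between SPM and DCM it was -0.52 (standard error 0.17), with an adjusted p of 0.0574, which does not pass. Without SPM replicate 2 these last 2 values were -1.22 (adjusted p = 0.01) and -0.57 (adjusted p = 0.12), and the value between SPM and DCM was -0.34 without SPM replicate 1.

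Clock (ENSMUSG00000029238, chromosome 5, 76209868 to 76304792) had 25.0, 34.7 and 37.5 CPM in the CK libraries, 35.0, 31.5 and 36.4 in the DCM libraries and 32.8, 39.0 and 43.2 in the SPM libraries. The groups overlapped throughout. Its log2 fold change was 0.08 (standard error 0.13) in DCM compared to CK, 0.17 (0.10) in SPM compared to DCM and 0.24 (0.15) in SPM compared to CK, and none passed. Without SPM replicate 2 the last 2 values were 0.16 and 0.23.

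Among the repressors, Per1 and Per2 encode PERIOD proteins, which form the repressor complex with CRY proteins. Per2 (ENSMUSG00000055866, chromosome 1, 91415982 to 91459324) had the largest fold of the members. It had 8.79, 5.42 and 7.11 CPM in the CK libraries, 24.9, 28.3 and 30 in the DCM libraries and 48.6, 39.1 and 26.2 in the SPM libraries. The lowest diabetic library, with or without spermine, was far above the highest control library, and SPM overlapped DCM. The group mean rose 3.9-fold in DCM, or 1.97 ± 0.15 on the log2 scale (± standard error, adjusted p = 1.26e-05 from edgeR), and 5.35-fold in SPM, or 2.42 ± 0.24 on the log2 scale (± standard error, adjusted p = 0.000755), or 2.41 without SPM replicate 2 (adjusted p = 0.00333). Between SPM and DCM the value was 0.46 (standard error 0.18, adjusted p = 0.0971). It was 0.24 without SPM replicate 1, 0.45 without replicate 2 and 0.67 (adjusted p = 0.00257, called) without replicate 3. The fit without replicate 3 rests on SPM replicates 1 and 2, which may not be independent libraries.

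Per1 (ENSMUSG00000020893, chromosome 11, 69095217 to 69109960), whose promoter E-box is shown above, had 44.3, 70.3 and 98.5 CPM in the CK libraries, 133.2, 153.6 and 129.7 in the DCM libraries and 131.0, 134.6 and 136.2 in the SPM libraries. Its control libraries were the most scattered of any member in proportion to their mean, and still all lay below the diabetic libraries. It rose by 0.97 on the log2 scale in DCM compared to CK (standard error 0.20, adjusted p = 0.00953 from edgeR) and by 0.91 in SPM compared to CK (standard error 0.23, adjusted p = 0.0196). This last call was lost without SPM replicate 2 (0.91, adjusted p = 0.0539) and without CK replicate 2 (0.90, adjusted p = 0.0692). For SPM compared to DCM the value was -0.05 (standard error 0.08), also -0.05 without SPM replicate 2 and 0.18 with the GC-content offset, and the means were 133.9 ± 2.65 and 138.9 ± 12.9 CPM (SD, n = 3).

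Cry1 and Cry2 encode cryptochromes, the partners of PER proteins, and Cry2 was called in DCM compared to CK while Cry1 was called in no comparison. Cry2 (ENSMUSG00000068742, chromosome 2, 92403646 to 92434043) had 29.3, 24.9 and 24.4 CPM in the CK libraries, 40.5, 46.1 and 34.0 in the DCM libraries and 39.1, 33.4 and 28.8 in the SPM libraries. DCM stood clear of CK, at 0.62 ± 0.11 on the log2 scale (± standard error, adjusted p = 0.00488 from edgeR), and SPM overlapped both other groups. The value in SPM compared to CK was 0.37 (standard error 0.12), whose adjusted p of 0.049 passed but whose size did not reach the fold limit, and it was 0.38 (adjusted p = 0.123) without SPM replicate 2. In SPM compared to DCM, Cry2 had -0.24 (standard error 0.13), or -0.23 without that library. Cry1 (ENSMUSG00000020038, chromosome 10, 85131700 to 85185064) had 14.6, 12.4 and 12.8 CPM in the CK libraries, 11.4, 13.1 and 10.3 in the DCM libraries and 15.8, 12.5 and 8.04 in the SPM libraries. Its groups overlapped, the SPM libraries alone spanned the values of all others, and the log2 fold changes were -0.19 (standard error 0.12), 0.08 (0.20) and -0.12 (0.21) in the order of comparisons used above, the last 2 being 0.06 and -0.14 without SPM replicate 2.

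Nr1d1 and Nr1d2 encode REV-ERB alpha and REV-ERB beta, heme-binding nuclear receptors that repress Arntl. Nr1d1 (ENSMUSG00000020889, chromosome 11, 98767932 to 98775333) had 71.0, 68.3 and 61.7 CPM in the CK libraries, 119.4, 117.1 and 98.3 in the DCM libraries and 117.4, 114.8 and 114.7 in the SPM libraries. The SPM libraries lay within the range of DCM, and both groups were above all controls. The log2 fold change was 0.74 (standard error 0.09, adjusted p = 0.000289 from edgeR) in DCM compared to CK, 0.79 (standard error 0.07, adjusted p = 0.000406) in SPM compared to CK and 0.06 (standard error 0.08, adjusted p = 0.647) in SPM compared to DCM. Without SPM replicate 2 the SPM values were 0.80 and 0.07. Exons of Nr1d1 overlap those of Thra, the thyroid hormone receptor gene on the opposite strand, over 263 of 3077 bases, and Thra had 184, 206 and 176 mean CPM in CK, DCM and SPM.

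Nr1d2 (ENSMUSG00000021775, chromosome 14, 18204054 to 18239127) was called in both comparisons of SPM. It had 37.5, 45.6 and 50.2 CPM in the CK libraries, 54.8, 50.6 and 57.9 in the DCM libraries and 92.8, 87.6 and 80.9 in the SPM libraries. DCM lay just above CK, without passing (log2 fold change 0.29, standard error 0.10, adjusted p = 0.0951 from edgeR), and SPM lay well above both. The rise in SPM compared to DCM was 0.68 (standard error 0.08, adjusted p = 0.00652), and 0.68 (standard error 0.10, adjusted p = 0.0217) without SPM replicate 2, but 0.44 with the GC-content offset, where the call was lost. In SPM compared to CK it was 0.97 (standard error 0.11, adjusted p = 0.0011), and 0.97 (adjusted p = 0.00628) without replicate 2.

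Dbp (ENSMUSG00000059824, chromosome 7, 45705088 to 45710203) is the output factor of the set. It had 12.6, 11.1 and 11 CPM in the CK libraries, 46.7, 32.4 and 43.8 in the DCM libraries and 54.9, 52.4 and 49.7 in the SPM libraries. The 3 groups formed 3 separate ranges, and the step from CK was the large one. The group mean rose 3.54-fold in DCM, or 1.82 ± 0.13 on the log2 scale (± standard error, adjusted p = 7.72e-06 from edgeR), and 4.52-fold in SPM, or 2.18 ± 0.08 on the log2 scale (± standard error, adjusted p = 1.14e-05, or 0.000109 without SPM replicate 2). Between SPM and DCM it was 0.36 (standard error 0.12, adjusted p = 0.0595), 0.36 without SPM replicate 2 (adjusted p = 0.156), 0.22 without DCM replicate 2 and 0.60 with the GC-content offset, where it was called. Dbp shares 539 of 2993 exonic bases with Sphk2 on the opposite strand, which had 26.7, 31.8 and 22.6 mean CPM in CK, DCM and SPM, and since strand was not stated for the counts, reads of such overlaps cannot be told apart. Cry2 and Arntl also overlap an antisense gene each, over 295 of 6320 and 33 of 7523 exonic bases, and those partners were not analysed here.

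Other features of the libraries moved with these comparisons. GC-rich genes tended to have lower log2 fold changes in SPM compared to DCM (Spearman's rho of -0.502 over 14484 genes, which are not independent replicates), whereas rho was 0.0602 in DCM compared to CK and -0.366 in SPM compared to CK. Nr1d2 has a GC content of 41.8% and Dbp of 61.6%. These are the members whose calls in SPM compared to DCM changed with the GC-content offset. In comparisons with CK the same 6 members were called with the offset as without it.

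Markers of other cells moved too. In bulk tissue, fewer cells of a type and less RNA per cell cannot be told apart. Of 7 fibroblast markers, 4 were called lower in DCM and 3 in SPM compared to CK, with summed levels of 2019 to 2119 CPM for CK, 1363 to 1463 for DCM and 1605 to 1688 for SPM. The matrix genes Col1a1, Col1a2 and Col3a1 were called in both and Postn in DCM. Lum, Dcn and Pdgfra were called in neither. Their log2 fold changes were -0.49, -0.04 and 0.05 in DCM and -0.07, 0.31 and 0.24 in SPM. Of all genes tested, 2.31% were called lower in DCM and 4.12% in SPM compared to CK. Between SPM and DCM, 6 of 8 macrophage markers were called higher (sums of 601.0 to 725.5 CPM in DCM and 720.6 to 1248 in SPM), 4 of 4 erythroid markers lower (1331 to 3296 and 752.9 to 1295 CPM) and 4 of 5 liver markers tested higher (27.8 to 32.2 and 31.0 to 359 CPM). These counts were 0, 0 and 2 without SPM replicate 2. With SPM replicate 2 included, 2.70% of all genes tested were called higher and 0.890% lower between SPM and DCM. The liver marker Alb had 245.7, 113.0 and 0.293 CPM in SPM replicates 1 to 3, against 0.264 to 0.353 in DCM. In SPM replicate 3, Alb, Apoa2 and Ttr were not above the DCM range, and Apoh was (0.488 CPM). So the rise of these liver markers lay mainly in replicate 1 and in replicate 2, which resembles a mixture of replicates 1 and 3. The 4 erythroid markers were also called lower in SPM compared to CK, and 1 liver marker (Ahsg) higher. In DCM compared to CK, 1 macrophage marker (Adgre1) was called lower, and of the liver markers Alb was called lower and Ahsg higher. None of 8 cardiomyocyte markers and none of 6 adipocyte markers tested was called in any comparison. Yet the cardiomyocyte sums were lower in SPM (42072 to 47215 CPM) than in CK (49577 to 55336) and DCM (48312 to 56312). In SPM compared to CK, 4 of these markers passed the adjusted limit but not the fold limit. Myh6 (log2 fold change -0.47), Myl3 (-0.29) and Tnni3 (-0.20) were lower and Tnnt2 (0.21) was higher. The endothelial marker Vwf was called higher in both comparisons with CK, and Tie1 lower in SPM compared to CK, out of 8. No marker of these lists was at 0 in all libraries. The part of these cells in the clock values was not tested.

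The balance between the 2 arms of the loop was described by the mean log2 CPM of Arntl, Clock and Npas2 minus that of Per1, Per2, Nr1d1, Nr1d2 and Dbp. It was -0.15, -0.16 and -0.19 in CK replicates 1 to 3, -1.66, -1.52 and -1.55 in DCM and -2.48, -2.06 and -1.78 in SPM. In this index the controls agreed within 0.04 and the DCM libraries within 0.14, and the gap between these groups was far wider than either. Single genes of the index differed more between controls, with Per1 at 44.3, 70.3 and 98.5 CPM and Clock at 25.0, 34.7 and 37.5. Such differences partly cancel in the index, so its narrow range does not mean that the controls were alike gene by gene. The SPM libraries spread over 0.71, and all of them were below all DCM libraries. The difference between group means was -1.41 for DCM and CK, -0.53 for SPM and DCM and -1.94 for SPM and CK, and without SPM replicate 2 the last 2 were -0.55 and -1.96.

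Distances between libraries over the log2 CPM of the 9 members separated CK from the other groups. Pairs within CK were 0.67 to 1.47 apart, within DCM 0.56 to 0.86 and within SPM 0.80 to 1.63. Pairs of a CK and a DCM library were 2.94 to 3.41 apart and pairs of a CK and an SPM library 3.30 to 4.51. Pairs of a DCM and an SPM library, at 0.82 to 1.86, overlapped the distances within SPM. Within CK, replicate 1 had the lowest Per1, Clock and Nr1d2 and the highest Arntl, Per2, Cry1, Cry2, Nr1d1 and Dbp. Within SPM, replicate 1 had the lowest Arntl, Per1 and Clock and the highest Per2, Cry1, Cry2, Nr1d1, Nr1d2 and Dbp, and replicate 3 was at the opposite end for all 9 genes. Without collection times, differences of hour within a group cannot be told apart from differences between animals.

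**Figure D3:**
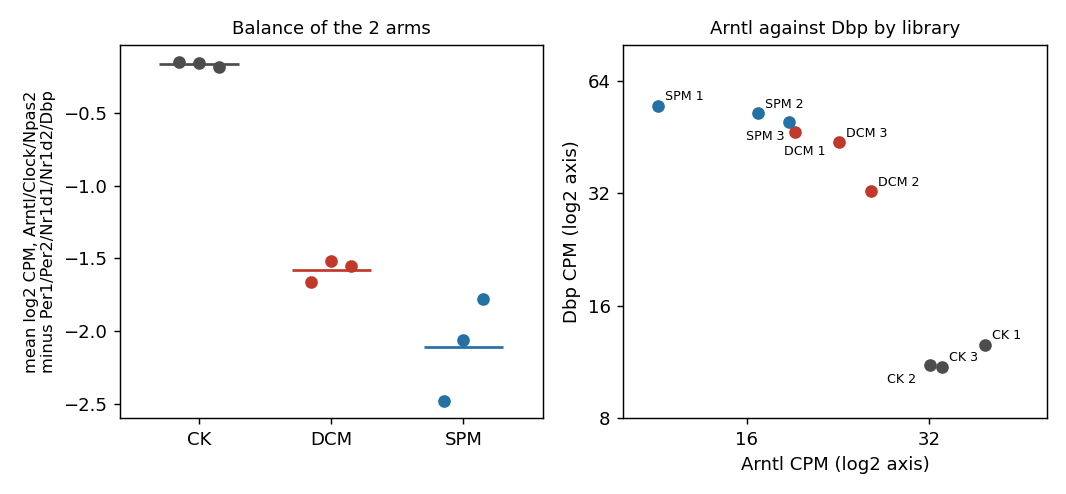
Left, balance of the 2 arms in each library (points) with group means (lines), as a difference of mean log2 CPM; right, CPM of Arntl against CPM of Dbp by library on log2 axes. CK libraries lie near 0 on the left and at high Arntl with low Dbp on the right, and DCM and SPM libraries lie between -1.52 and -2.48 and at low Arntl with high Dbp.

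The list of other clock transcription factors held 11 genes, of which 10 were tested and Ciart was not analysed here. For DCM compared to CK, 2 of 10 were called higher and 0 lower, and the log2 fold changes had a median of 0.23. Of all genes tested there, 2.03% were called higher and 2.31% lower. None was called by edgeR between SPM and DCM, with a median of 0.20. There 6 genes had an unadjusted p below 0.05, and Rora, Nfil3, Hlf and Bhlhe40 passed the adjusted limit but not the fold limit. For SPM compared to CK, 6 were called higher and 1 lower, with a median of 0.68, where 5.08% of all genes tested were called higher and 4.12% lower. Tef and Hlf, which encode D-box factors of the same family as DBP, were among those called. Tef went from 140.4 ± 8.67 CPM in CK to 223.1 ± 7.78 in DCM (log2 fold change 0.67, standard error 0.07, adjusted p = 0.000136 from edgeR) and 248.3 ± 54.0 in SPM (SD, n = 3).

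Hlf rose in SPM compared to CK, from 17.2 ± 0.665 to 31.7 ± 3.3 CPM (SD, n = 3), or by 0.88 as a log2 fold change (adjusted p = 0.000854 from edgeR). In DCM compared to CK, Hlf had 0.54 (adjusted p = 0.00299), short of the fold limit. Nfil3, whose product represses through D-boxes and whose gene is repressed by REV-ERB, fell in SPM compared to CK from 20 ± 1.46 to 11.3 ± 0.751 CPM (SD, n = 3), with a log2 fold change of -0.82 (adjusted p = 0.0011), with DCM at 16.2 ± 1.21. Npas2, a paralog of Clock, took the same order (13.3 ± 1.2, 11.7 ± 0.0418 and 9.4 ± 0.929 CPM) but its log2 fold change of -0.50 in SPM compared to CK did not reach the fold limit.

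The E-box repressors Bhlhe40 and Bhlhe41 (DEC1 and DEC2) were also called. Bhlhe41 rose from 7.65 ± 1.02 CPM in CK to 13.6 ± 2.88 in DCM and 16 ± 0.482 in SPM (SD, n = 3), with log2 fold changes of 0.83 and 1.07. Bhlhe40 rose in SPM compared to CK by 0.76 on the log2 scale. Rora, an activator of Arntl, rose in SPM compared to CK by 0.60 (adjusted p = 0.00936 from edgeR), and Arntl2, a paralog of Arntl at 1.91 to 5.04 CPM, by 0.87 (adjusted p = 0.0242). These 2 calls were lost without SPM replicate 2, at 0.58 and 0.87 (adjusted p = 0.0416 and 0.0914), and those of Tef, Hlf, Nfil3, Bhlhe40 and Bhlhe41 held.

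**Figure D4:**
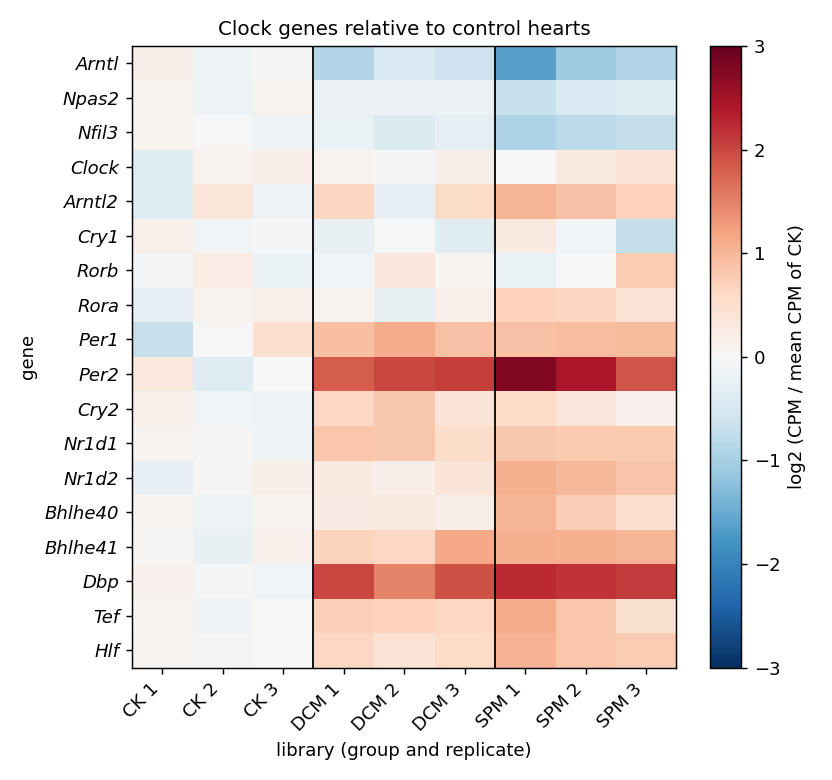
Log2 ratio of each library's CPM to the mean CPM of CK for the 9 members and 9 other clock transcription factors (rows) in the 9 libraries (columns, groups divided by lines); red is higher and blue lower than the CK mean. Arntl, Npas2 and Nfil3 turn blue and Per1, Per2, Nr1d1, Dbp, Tef, Hlf and Bhlhe41 turn red in every DCM and SPM library.

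Enzymes and other proteins that act on PER, CRY and CLOCK proteins formed the next list. Of 12 tested (Usp2 was not analysed here), 1 was called lower in DCM compared to CK, none in SPM compared to DCM and 1 lower in SPM compared to CK, with median log2 fold changes of 0.03, 0.01 and 0.00. Of all genes tested, 2.31% were called lower in the first of these comparisons and 4.12% in the last. Between SPM and DCM, those with an unadjusted p below 0.05 from edgeR had log2 fold changes of -0.22 (Csnk1d, casein kinase 1 delta), -0.23 (Ddb1), 0.25 (Gsk3b) and -0.31 (Wdr5). Csnk1d and Wdr5 also passed the adjusted limit (adjusted p = 0.0435 and 0.0222), and all were short of the fold limit. The share of all genes at the unadjusted limit is not reported here, so the number of such genes is not a result about the list. The gene called in both comparisons with CK was Timeless, known for its work at replication forks, which had 23.5 ± 3.17 CPM in CK, 12.6 ± 0.389 in DCM and 13.7 ± 1.66 in SPM (SD, n = 3; log2 fold changes -0.90 and -0.77). The casein kinase gene Csnk1e had 0.36 on the log2 scale in DCM compared to CK, under the fold limit with an adjusted p of 0.00801 from edgeR.

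A list of genes known to cycle in many tissues or in heart had 9 genes tested, Tef and Hlf included, and Ciart, Usp2 and Wee1 were not analysed here. For DCM compared to CK, 2 of 9 were called higher and none lower, where 2.03% of all genes tested were called higher and 2.31% lower. The median log2 fold changes were 0.50, 0.09 and 0.41 in the order of comparisons used above. Besides Tef, the gene called higher in DCM compared to CK was Tspan4, a tetraspanin, which rose from 49.1 ± 3.76 to 81.7 ± 6.21 CPM (SD, n = 3; log2 fold change 0.73) and had 80.1 ± 14.7 in SPM. Pdk4, the kinase that shuts off pyruvate dehydrogenase, was called lower in SPM compared to CK (log2 fold change -0.87), with 3027 ± 203.5, 2231 ± 50.4 and 1653.5 ± 343.5 CPM in CK, DCM and SPM. Lonrf3, at 0.519 to 2.85 CPM, was called lower in SPM compared to DCM (log2 fold change -1.02) and lost its call without SPM replicate 2. Klf15, a metabolic transcription factor, had 0.50 in DCM and 0.58 in SPM compared to CK, short of the fold limit.

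Per1 also belongs to a list of 10 genes induced by glucocorticoid, of which 6 were called higher in DCM compared to CK and 6 in SPM compared to CK, with none lower and medians of 0.95 and 0.79 on the log2 scale. Of all genes tested, 2.03% were called higher in the first comparison and 5.08% in the second. Fkbp5, a chaperone of the glucocorticoid receptor, led with 33.4 ± 7.18 CPM in CK, 119.2 ± 22.5 in DCM and 117.7 ± 27.5 in SPM (SD, n = 3), and Zbtb16, Cdkn1a and Mt2 were called in both comparisons, Mt1 in the first and Klf9 in the second. Without SPM replicate 2, Per1 and Mt2 lost their calls in the second, leaving 4. Dusp1 was the 1 of 10 called lower in SPM compared to DCM (log2 fold change -0.73), where 0.890% of all genes tested were called lower. The call of Dusp1 was lost without SPM replicate 2. The difference between these comparisons was not tested, and nor was any part of this list in the level of Per1.

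The genes whose pattern was most like that of Arntl and Dbp were named from 12609 genes with a mean of at least 1 CPM, by Pearson's r of log2 CPM over the 9 libraries, which share groups and the GC trend, so r is a description only. For Arntl the highest were Hspg2 (r = 0.995), Ccdc189 (0.989), Myo10 (0.987), Inpp5j (0.985) and Obsl1 (0.982), and the lowest were Dstn (-0.99), Gm12381 (-0.982), Gm28661 (-0.981), Rad18 (-0.978) and Btf3l4 (-0.976). For Dbp the highest were E230013L22Rik (0.985), Decr1 (0.984), Gm43050 (0.983), Gm40466 (0.982) and Gm10156 (0.981), and the lowest were Map4k4 (-0.989), Serpinh1 (-0.982), Vash1 (-0.98), Rab29 (-0.98) and Rnf216 (-0.979). Clock genes came after these. Npas2 (0.938) and Nfil3 (0.899) had the highest r with Arntl among the genes of the loop and Hlf (-0.959) the lowest, and Per2 (0.966), Hlf (0.962) and Nr1d1 (0.954) went most closely with Dbp. Arntl and Dbp had r = -0.886 with each other.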

How the data were processed

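RNA of 9 heart libraries, 3 each of CK, DCM and SPM, was sequenced on an Illumina instrument after oligo(dT) enrichment and rRNA removal, and every library took its group from its deposited title. The authors deposited raw counts, whole numbers per Ensembl gene, and FPKM values, in which a gene's count is scaled by a fixed gene length and the total of the library (largest relative deviation 6.8e-13). Reads were filtered with fastp. The submitters' processing notes name Bowtie 0.12.2, mm8 and mm9 without a role, and neither the counting tool nor its annotation is given in the sources used here. Symbols and coordinates came from GENCODE M21 on GRCm38 by identifier, which named 22820 of 22851 genes.

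Each pair of groups (6 libraries) was fitted with edgeR 4.0.16 in R 4.3.3 (filterByExpr, TMM, glmQLFTest) over the whole table, with Benjamini-Hochberg adjustment over all genes tested, an adjusted p limit of 0.05 and a fold change of 1.5, the limits in the study's methods. The standard error is the log2 fold change divided by the square root of F. CPM values are scaled with TMM over all 9 libraries, and 0.1 was added before logs. No count test was applied to FPKM. The balance of the arms was planned with Per3, which was not analysed here. Of these steps, only the edgeR fit of 2 groups was tested on simulated counts. Alternatives were DESeq2 1.42.0, limma 3.58.1 on log2(FPKM + 0.1), RLE normalization, mitochondrial genes left out, other filters and fold limits, a joint fit of 9 libraries, a replicate block, a GC-content offset (lowess span 0.3), Spearman's rho and each library left out. Residual correlations of libraries with the same replicate number lay between -0.0793 and 0.2, so the numbers were not taken as pairs. The members and lists were chosen with earlier results of these data known. All members were named, and of the other lists the genes called in any comparison. Csnk1d, Csnk1e, Ddb1, Gsk3b, Wdr5, Klf15, Npas2 and the marker genes named were added after their values were seen. Values of some genes of the lists are not reported here. Figures used Python 3.11.15 and matplotlib 3.10.9.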

Additional observations from a re-analysis of the deposited data

How the results depend on the processing

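Of 459 values of the 9 members under alternatives, 436 kept their direction and whether they were called, 10 lost a call, 4 gained one and 9 changed sign. The 459 include the alternatives that changed only the fold limit. These reused the main fit, so their log2 fold changes and adjusted p could not differ. Of the 436, 20 crossed the adjusted p limit without a change of call, since they stayed under the fold limit. They were Nr1d2 in DCM compared to CK, Arntl, Per2 and Dbp in SPM compared to DCM (for Arntl, adjusted p = 0.0193 with DESeq2 and 0.00739 with a replicate block), and Clock and Cry2 in SPM compared to CK (for Cry2, 0.162 with limma). Sign changes were all in values that had not passed. With the GC-content offset, Clock became -0.11 and Per1 0.18 in SPM compared to DCM, and Clock -0.01 in SPM compared to CK. With 1 library left out, Clock ranged from -0.07 to 0.20 in DCM compared to CK. In SPM compared to DCM, Per1 ranged from -0.10 to 0.03, Cry1 from -0.17 to 0.30 and Nr1d1 from -0.04 to 0.10. Cry1 ranged from -0.37 to 0.10 in SPM compared to CK. The cause was not tested. Over the libraries left out, the number of members called was 4 to 6 in DCM compared to CK and 5 to 6 in SPM compared to CK. In SPM compared to DCM it was 1 to 3. The 3 came without SPM replicate 3, where the SPM libraries left may not be independent. Without a fold limit the number was 7 in SPM compared to CK. A replicate block gave 6, 1 and 6 and changed no call, and so did DESeq2. The balance of the arms was larger when Arntl minus Dbp was used alone (-2.44, -0.91 and -3.35 for DCM minus CK, SPM minus DCM and SPM minus CK), was -1.26 for DCM minus CK with longer lists of genes, and over the libraries left out lay between -1.44 and -1.37, -0.69 and -0.34, and -2.10 and -1.75. With Spearman's rho, the genes named as most like Arntl and Dbp kept the sign of Pearson's r.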
